A study of Mus musculus with 4 samples.

Results

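The spots described here are glutamatergic, subcortical spots of mouse brain sections, chosen for a high share of Slc17a6 transcripts. A spot is a barcoded capture area of a 10x Visium slide that covers several cells, so a spot is a small piece of tissue and not a cell. In each library, barcodes with at least 5000 UMIs (unique molecular identifiers, each counting 1 captured transcript) and no Slc6a3 UMI were ranked by Slc17a6 UMIs minus Slc17a7 UMIs over total UMIs. The top 8% with at least 3 Slc17a6 UMIs were kept: 156 and 149 spots in controls 1 and 2, and 189 and 224 spots in knockouts 1 and 2. They are 718 of the 9160 spots that could be ranked and of the 19968 barcodes in the files. Values of 4 libraries are given in that order throughout.

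Slc17a6 encodes VGLUT2 and Slc17a7 encodes VGLUT1, transporters that load glutamate into synaptic vesicles. VGLUT2 serves most excitatory neurons of the thalamus, hypothalamus, midbrain and hindbrain, and VGLUT1 most of those in cortex and hippocampus. Slc6a3 encodes the dopamine transporter, a marker of midbrain dopamine neurons. The excitatory neurons of these deep regions are surrounded by dense bundles of myelinated axons, so a spot rich in Slc17a6 also holds oligodendrocytes, astrocytes, microglia and vessels.

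The 2 control libraries came from Pdcd10fl/fl mice and the 2 knockout libraries from Slco1c1-iCreERT2;Pdcd10fl/fl littermates. Pdcd10 (Ccm3) codes for a scaffold protein, and brain endothelium that lacks it forms cerebral cavernous malformations, clusters of dilated, leaky vessels. The Cre is active in brain endothelium and was induced in pups with 50 µg of 4-hydroxytamoxifen on postnatal day 1. Brains were taken on day 65, frozen, and cut at 10 µm. The deletion was directed at endothelium, and which cells of these spots lost the gene was not measured. The study set out to map inflammatory and clotting transcripts in such lesions. The sources disagree on oxygen. Titles and design text place all libraries in normoxia, the treatment label says hypoxia for the knockouts, and the protocol gives 12% oxygen for 2 days. If that label holds, genotype and oxygen cannot be told apart. Nothing in the labels ties the 2 libraries of a genotype to different mice. Every p-value below therefore reflects only how far these libraries differ, a spread that may be technical.

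Summed over spots, controls held 2634830 and 2933384 UMIs, and knockouts 4400647 and 4999935. The median spot of a control held 16044 and 20038 UMIs, that of a knockout 22618 and 22150. Over all ranked spots the order was the other way, with control medians of 18966 and 22396.5 UMIs against 13199 and 15816. Mitochondrial transcripts made up between 7.65% and 11.1% of UMIs, both extremes in the controls. Removing spots with an Slc6a3 UMI took out 13.7%, 26.2%, 17.6% and 16.8% of spots with at least 5000 UMIs. All libraries list the same 4992 barcodes, and a barcode marks a place on a slide, not a cell. Of the chosen spots, 22 barcodes were shared by the controls, 84 by the knockouts, and 11 to 21 by a control and a knockout. UMI totals at the same barcode correlated at 0.744 between the controls and 0.768 between the knockouts, against 0.0926 to 0.227 across groups. Pdcd10, the deleted gene, was not lower: it stood at 88.6 and 73 CPM in control libraries, and at 94.4 and 105 CPM in knockout libraries (log2 fold change 0.31 ± 0.12, adjusted p = 0.102 in edgeR's quasi-likelihood test; 0.0219 without control 1). CPM stands for UMIs per 1000000 of the library's summed spots after TMM scaling. The endothelial share of Pdcd10 transcripts in these spots is unknown, so this does not check the labels.

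The spots were selected on Slc17a6, Slc17a7 and total UMIs, and these values are given without a test. A chosen spot held a median of 8, 10, 8 and 9 Slc17a6 UMIs, up to 23, 21, 26 and 27, and a median of 0 Slc17a7 UMIs in every library. No Slc17a7 UMI was found in 71.2%, 70.5%, 67.2% and 52.2% of them. The lowest score inside was 3.54, 3.79, 2.43 and 2.62 per 10000 UMIs, and the next spot outside had 3.53, 3.79, 2.42 and 2.61. The cut therefore sat lower in both knockouts. Summed, Slc17a6 stood at 528 and 545 CPM in control libraries, and at 395 and 429 CPM in knockout libraries. Slc17a7 stood at 29.8 and 29.3 against 19.1 and 33.5 CPM. Slc17a8, the third vesicular glutamate transporter, was at most 1.89 CPM.

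Each chosen spot was assigned to 1 of 10 brain regions, by the list of regional marker genes with its highest mean score. Cortex or hippocampus led in 0, 1, 2 and 1 chosen spots, so the spots were subcortical by these lists too; the rule itself had favoured low Slc17a7. The makeup differed between the groups. Thalamus was the leading list in 35.9% and 27.5% of control spots but in 8.99% and 17.4% of knockout spots. Tectum and pretectum led in 10.3% and 12.1% of control spots and in 46.6% and 27.2% of knockout spots. The subthalamic and mammillary list led in 23.7%, 34.2%, 22.2% and 31.7%, with no split between the groups. Spot positions were not analysed here, so these are calls from transcripts, and a section cut at another depth and a changed marker gene cannot be told apart. Because the regions differ, values within a region or from a region-matched comparison of 92 spots per library are given beside some results below. Results given without such a value are not adjusted for region.

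**Figure D1:**
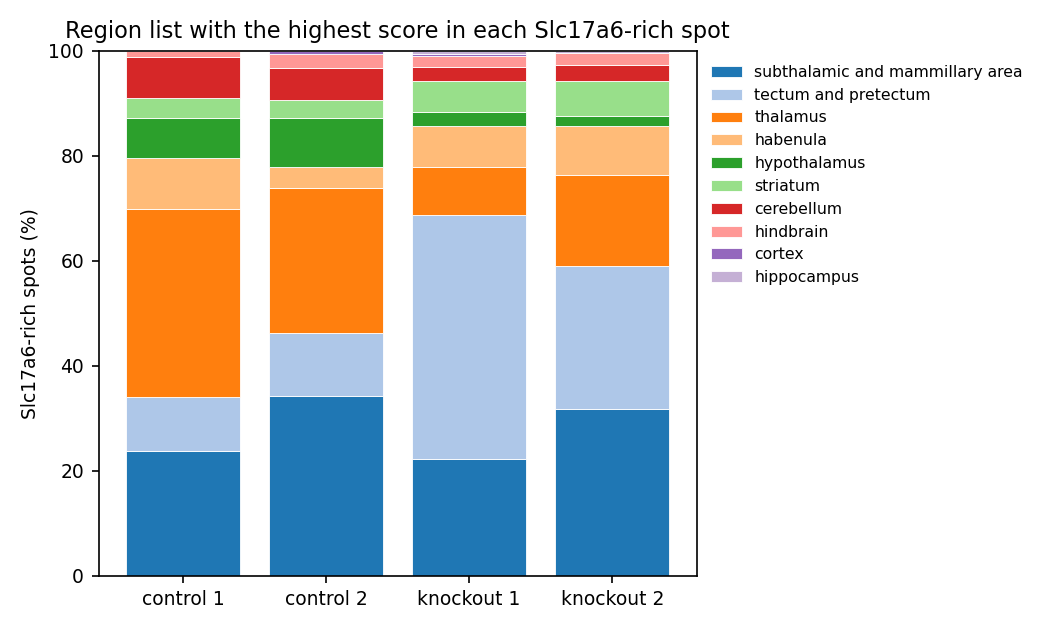
Share of Slc17a6-rich spots (y axis, percent) in each of the 4 libraries (x axis) by the regional marker list with the highest score in the spot, 1 colour per list. Thalamus fills 35.9% and 27.5% of the control bars and 8.99% and 17.4% of the knockout bars, and tectum and pretectum are largest in knockout 1 at 46.6%.

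Between the groups, 868 of 12631 tested genes rose (6.87%) and 1065 fell (8.43%) in the knockout spots at an adjusted p under 0.05, with a median log2 fold change of 0.01 over all tested genes. Counts of genes that rose or fell within a list, given below, are to be read beside these 6.87% and 8.43%. Libraries of the groups did not overlap for 57.6% of tested genes, so that alone marks no gene. DESeq2 on the same sums called 291 genes higher and 423 lower. With spots matched by region and thinned to 5000 UMIs, 139 genes rose and 157 fell of 7363 tested. Matched at full depth, a comparison chosen after seeing the data and used for the region-matched values below, 562 rose and 719 fell of 11465. Within 1 region the counts were 331 and 412 in thalamus and 291 and 381 in the subthalamic and mammillary spots. They were 166 and 255 in tectum and pretectum. Thalamus values rest on 56, 41, 17 and 39 spots. The thalamus fit used only the spread shared across genes, so its counts are not on the same footing as the others. In the thalamus spots, genes of the thalamus list itself fell in 8 of 14 cases. Across all chosen spots 10 of those 14 fell and 6 of 9 tectum genes rose. The same lists assigned the spots to regions, so these counts are no separate check of the region makeup. Log2 CPM correlated across genes at 0.980 between the controls, 0.988 between the knockouts, and 0.954 to 0.956 across groups. Genes do not count as replicates. Within a group, the 2 libraries differed beyond sampling noise (chi-square per degree of freedom 4.32 and 2.75).

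The largest rise was that of Ucn, which encodes urocortin, a peptide related to corticotropin-releasing hormone. It had no UMI in the chosen control spots and reached 28.1 and 60.3 CPM in the knockouts, at least 81.3-fold higher than a floor of 3 UMIs over both controls (adjusted p = 1.13e-06). Cartpt, the precursor of CART peptides, rose with it, at 86.7 and 39.8 against 268 and 723 CPM (log2 fold change 2.98 ± 0.35, adjusted p = 1.24e-05). Both peptides are known to be made together by neurons of the Edinger-Westphal nucleus, a small group of midbrain cells. The transcripts came from few spots. Ucn was found in 16 of 189 and 28 of 224 knockout spots, and the 5 richest spots held 71.8% and 54.2% of its UMIs. The spots with Ucn also held 74.4% and 85.2% of the Cartpt UMIs. Without them, Cartpt stood at 75.5 and 126 UMIs per 1000000 in the knockouts and 87.3 and 38.9 in the controls, which overlap. Over all 4992 barcodes, Ucn had 17, 14, 757 and 1236 UMIs. Whether the control sections contain the same nucleus was not tested.

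The promoters of this pair are shown because the 2 genes shared spots and both hold the palindrome TGACGTCA, known as the cAMP response element. Each line gives the 250 bases before an annotated RefSeq start on GRCm38.p6, 5′ to 3′ on the gene's own strand, with the motif in capitals. The Ucn window adjoins the RefSeq gene, whose span ends at 31138895. The Cartpt window lies inside the RefSeq gene span of 99898483 to 99910179, so its start is not the outer end of that span.
Ucn, chr5:31138896-31139145, minus strand: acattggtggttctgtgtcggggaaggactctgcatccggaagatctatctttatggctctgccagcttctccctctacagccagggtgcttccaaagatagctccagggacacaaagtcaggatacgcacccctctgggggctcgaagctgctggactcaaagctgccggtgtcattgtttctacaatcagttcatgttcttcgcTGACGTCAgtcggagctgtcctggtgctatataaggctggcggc
Cartpt, chr13:99900684-99900933, minus strand: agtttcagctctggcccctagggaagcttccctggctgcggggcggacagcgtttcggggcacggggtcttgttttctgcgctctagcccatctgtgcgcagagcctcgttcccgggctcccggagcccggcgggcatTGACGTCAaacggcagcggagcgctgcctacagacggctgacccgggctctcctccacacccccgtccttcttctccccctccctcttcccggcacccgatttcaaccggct
The motif begins 44 bases before the annotated start used for Ucn and 112 bases before that used for Cartpt. On either strand, 508 of 32851 RefSeq promoters (1.55%) hold these letters in the same window. A match is a description of the sequence and not a measured binding site.

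More genes of neuronal release rose than fell. Of 23 tested genes of synaptic vesicle release, 7 rose and 3 fell (median log2 fold change 0.11). Among all tested genes 6.87% rose and 8.43% fell. DESeq2 called 5 rises and 1 fall, and with regions matched 7 rose and 0 fell. Cplx2, a complexin that clamps and triggers vesicle fusion, rose 2.09-fold, from 84.9 and 127 to 218 and 226 CPM (log2 fold change 1.07 ± 0.14, adjusted p = 4.27e-05). Snap25, a core fusion protein, stood at 2228 and 1982 CPM in control libraries, and at 2847 and 3430.5 CPM in knockout libraries (log2 fold change 0.58 ± 0.13, adjusted p = 0.00673; 0.128 without knockout 2). Nsf, the ATPase that recycles fusion complexes, rose from 559 and 557 to 801 and 818 CPM. In these 3 genes both knockouts lay above both controls, while the groups lay apart, in either direction, for 57.6% of all tested genes.

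Of 32 voltage-gated channel genes 9 rose and 3 fell, a share of falls near the 8.43% of all tested genes. DESeq2 called 5 rises and 1 fall, and with regions matched 9 rose and 1 fell. Scn1a, the sodium channel of fast-spiking cells, rose from 75.4 and 67.4 to 144 and 129 CPM (log2 fold change 0.94 ± 0.12, adjusted p = 2.56e-05). Scn4b, a sodium channel beta subunit that aids fast firing, rose from 33.9 and 52 to 98.3 and 90.7 CPM (log2 fold change 1.13 ± 0.15, adjusted p = 6.89e-05). The size varied by region, a difference that was not tested: the log2 fold change was 2.09 in subthalamic and mammillary spots, 0.69 in thalamus and 0.64 in tectum. Hcn2, a pacemaker channel abundant in thalamus, fell from 273 and 279 to 164 and 139 CPM (log2 fold change -0.87 ± 0.11, adjusted p = 2.76e-05). Its log2 fold change was -1.50 in thalamus spots, -0.35 in subthalamic and mammillary spots and -0.71 with regions matched.

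Of 27 glutamate receptor genes, 6 fell and the other 21 did not pass the test; with DESeq2 none of the 27 passed, and region-matched spots kept 3 falls. Grik2, a kainate receptor subunit, stood at 32.8 and 33.5 CPM in control libraries, and at 17.3 and 23.5 CPM in knockout libraries (log2 fold change -0.69 ± 0.18, adjusted p = 0.0123; 0.126 by DESeq2 and 0.095 without knockout 1). Of 17 GABA-A and glycine receptor genes 6 fell, of which DESeq2 called 1. The largest of these falls was that of Gabrd, the delta subunit of extrasynaptic receptors, at 14.7 and 11.9 against 1.82 and 3.15 CPM (log2 fold change -2.37 ± 0.34, adjusted p = 0.000109). With regions matched its adjusted p was 0.0687. The thalamus list fell in the same spots, and its part in this fall was not tested.

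Of 6 tested genes of GABAergic and glycinergic neurons 3 rose and 3 did not pass. In tectum spots 1 of 5 rose and 1 fell. Gad1, which makes GABA from glutamate, stood at 169.7 and 167 CPM in control libraries, and at 291 and 266 CPM in knockout libraries (log2 fold change 0.72 ± 0.10, adjusted p = 0.00013). Within regions it stood at 168 and 176 against 189.7 and 186 UMIs per 1000000 in thalamus, 278 and 302 against 351 and 335 in tectum, and 127 and 59.7 against 208 and 231 in the subthalamic and mammillary spots, controls against knockouts. Gad2, the second such enzyme, overlapped between the groups in tectum, at 236 and 248 against 208 and 271 UMIs per 1000000. Tac1, the precursor of substance P, rose from 82.2 and 89.7 to 156 and 157 CPM (log2 fold change 0.86 ± 0.11, adjusted p = 3e-05). Th, the enzyme that starts dopamine synthesis, fell from 30.5 and 18.9 to 10.2 and 9.46 CPM (log2 fold change -1.32 ± 0.24, adjusted p = 0.00113), in spots from which those with an Slc6a3 UMI had been removed. With those spots kept its log2 fold change was 0.42 (adjusted p = 0.074), so its direction depended on that removal.

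Immediate early genes are switched on for minutes to hours by neuronal activity. Of 22 tested, 9 fell, 2 rose and 11 did not pass (median -0.50). In thalamus spots 5 of 14 fell and 1 rose, with a median of 0.15. Fos fell 3.83-fold, from 82.2 and 68.1 to 20.4 and 18.7 CPM (log2 fold change -1.94 ± 0.15, adjusted p = 6.04e-08). Nr4a2, an orphan nuclear receptor that also marks some resting neurons, stood at 33.2 and 49.9 against 4.09 and 9.27 CPM (log2 fold change -2.61 ± 0.27, adjusted p = 2.63e-06). Nr4a3 fell 9.57-fold, to 1.36 and 1.77 CPM. Klf4, which also belongs to the vascular list below, rose from 6.41 and 5.93 to 22 and 21.5 CPM (log2 fold change 1.81 ± 0.24, adjusted p = 5.33e-05). With regions matched the counts were 8 falls and 2 rises.

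Myelin genes fell in the knockout spots. Of 24 tested, 21 fell and 1 rose, with a median log2 fold change of -1.23. Mog, a protein of the outer myelin surface, fell 5.15-fold, from 355 and 366 to 79 and 61.5 CPM (log2 fold change -2.36 ± 0.12, adjusted p = 1.03e-09). Opalin, a membrane protein of mature oligodendrocytes, stood at 142 and 146 CPM in control libraries, and at 26.8 and 20.1 CPM in knockout libraries (log2 fold change -2.63 ± 0.14, adjusted p = 1.03e-09). Ugt8a, which makes the myelin lipid galactosylceramide, stood at 159.5 and 162 against 35.4 and 36.1 CPM (log2 fold change -2.17 ± 0.11, adjusted p = 1.03e-09). In these 3 genes the control and knockout libraries did not overlap, which held for 57.6% of all tested genes.

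The fall was also counted within each region. Thalamus spots had 21 falls, tectum 20, subthalamic and mammillary spots 17, and region-matched spots 21, of 24 tested in each. Mog stood at 416 and 375 against 63.2 and 52.5 UMIs per 1000000 in thalamus, 296 and 335 against 90.3 and 63.2 in subthalamic and mammillary spots, and 374 and 298 against 86.7 and 71.1 in tectum, controls against knockouts. Other oligodendrocyte genes fell too. Pllp, plasmolipin, stood at 179 and 211 against 40.0 and 34.1 CPM, and Gamt, which completes creatine synthesis and is rich in oligodendrocytes, stood at 78.8 and 79.9 against 11.8 and 12.4 CPM. Trf, the iron carrier transferrin, made in brain mainly by oligodendrocytes, fell from 636 and 763 to 228 and 181 CPM (log2 fold change -1.78 ± 0.13, adjusted p = 3.91e-08). In sums of spots, fewer oligodendrocytes and less RNA per oligodendrocyte cannot be told apart.

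Apod was the exception in the myelin list. This apolipoprotein, made by oligodendrocytes and perivascular cells, rose 3.9-fold, from 482 and 486 to 2090.4 and 1689 CPM (log2 fold change 1.97 ± 0.13, adjusted p = 1.29e-08). Ptgds, the prostaglandin D2 synthase of meninges and oligodendrocytes, rose 3.39-fold, from 1703 and 1533 to 6002 and 4955 CPM (log2 fold change 1.76 ± 0.14, adjusted p = 1.22e-07). It is 1 of 5 tested leptomeningeal genes, of which Mgp also rose (63.7 and 41.5 against 94 and 67.6 CPM) and Igf2 fell (24.5 and 21.3 against 13.2 and 10.6 CPM). Oligodendrocyte precursor genes fell in 7 of 14 cases (median -0.66), and in 7 of 14 with regions matched. Enpp6, a marker of newly forming oligodendrocytes, fell from 25.6 and 22.7 to 5.22 and 6.11 CPM (log2 fold change -2.08 ± 0.23, adjusted p = 8.6e-06).

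**Figure D2:**
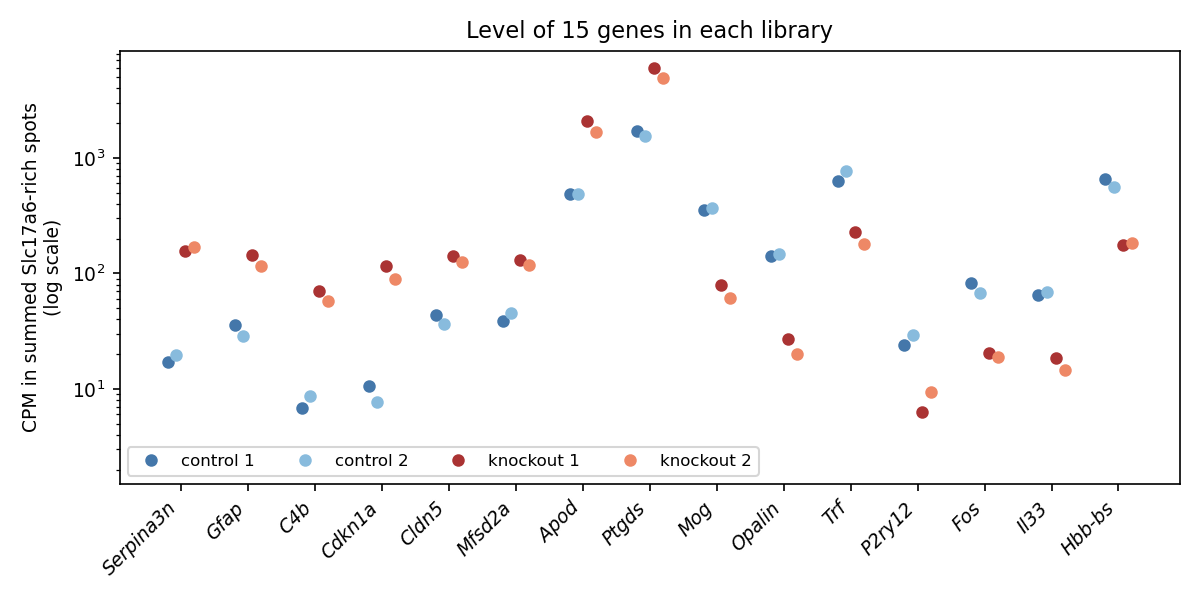
Level of 15 genes (x axis) in the summed Slc17a6-rich spots of each library, as CPM on a log axis; each point is 1 library. Both knockouts lie above both controls for the 8 genes from Serpina3n to Ptgds and below them for the 7 from Mog to Hbb-bs.

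Of 24 tested reactive astrocyte genes 15 rose and 1 fell (median 1.10), and 14 of 20 rose with regions matched. Serpina3n, a secreted protease inhibitor of the acute phase, rose 8.95-fold, from 17 and 19.6 to 157 and 171 CPM (log2 fold change 3.16 ± 0.14, adjusted p = 1.94e-10). Gfap, the intermediate filament of reactive astrocytes, stood at 35.8 and 28.6 CPM in control libraries, and at 143 and 115 CPM in knockout libraries (log2 fold change 2.0 ± 0.15, adjusted p = 5.8e-08). Plin4, a lipid droplet coat protein, went from 1.13 and 0.698 to 37.5 and 27.2 CPM (log2 fold change 5.10 ± 0.38, adjusted p = 5.8e-08). Lcn2, a secreted iron-siderophore binder, had no UMI in the control spots and stood at 7.26 and 8.08 CPM in the knockouts, at least 14.1-fold over the same floor. General astrocyte genes showed no common direction, with 3 of 20 higher and 5 lower, beside 6.87% and 8.43% of all tested genes. Gjb6, a connexin of astrocyte networks, rose from 98.8 and 104 to 248 and 242 CPM. Mfge8, a bridging protein for phagocytosis, fell from 69.4 and 74.7 to 38.1 and 31.7 CPM.

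Reactive astrocyte transcripts were higher across most knockout spots. With each spot thinned to 5000 UMIs, the list took a mean of 14.2 and 13.6 UMIs per control spot and 31.6 and 28.1 per knockout spot. The 10th percentile of knockout spots was 19.0 and 17.0 UMIs, above the control median of 13 in both libraries. A share of 34.4% (95% Wilson interval 28.0% to 41.4%) and 29.9% (24.3% to 36.2%) of knockout spots exceeded 32.5 UMIs, the higher of the 2 controls' 99th percentiles. In the controls 1.28% and 0.671% did. Intervals cover counting of spots only. The mean of thalamus spots was 37.2 and 31.2 in the knockouts, against 29.7 and 27.3 in tectum. Serpina3n was highest in knockout thalamus, at 16.8 and 13.2 against 370.3 and 335 UMIs per 1000000 in thalamus, 13.2 and 17.2 against 149 and 135 in subthalamic and mammillary spots, and 8.98 and 22.5 against 135 and 153 in tectum, controls against knockouts. Spots above and below their library's median Slc17a6 score held alike amounts, 32.7 and 30.5 UMIs of the list in knockout 1 and 28.1 and 28.0 in knockout 2.

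**Figure D3:**
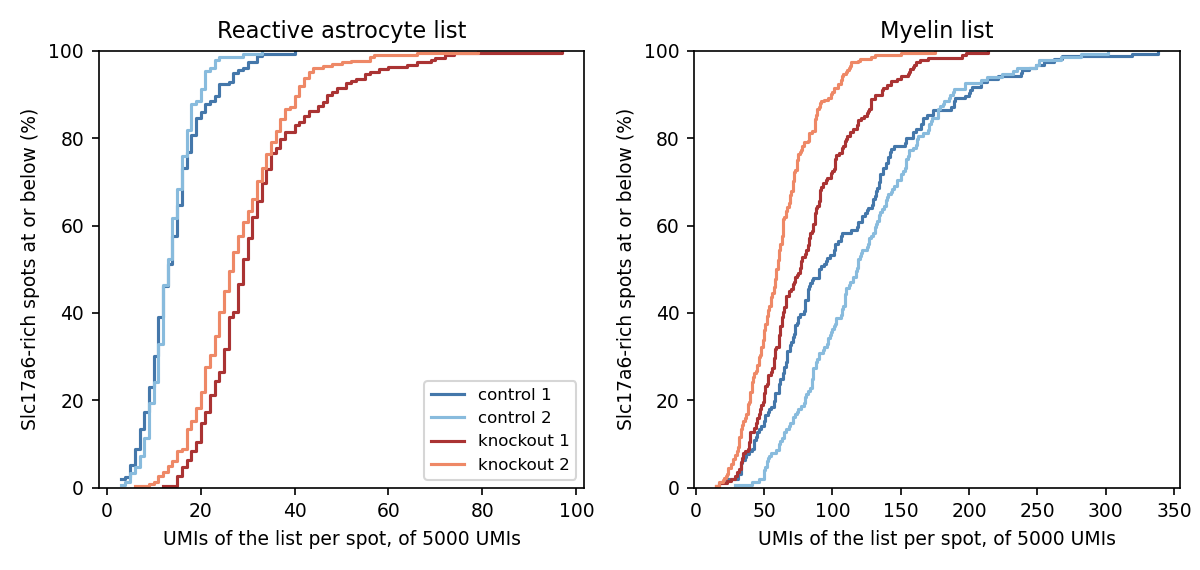
Cumulative share of Slc17a6-rich spots (y axis, percent) by the UMIs of a gene list in a spot thinned to 5000 UMIs (x axis), for reactive astrocyte genes on the left and myelin genes on the right, 1 line per library. Means go up from 14.2 and 13.6 to 31.6 and 28.1 for reactive astrocyte genes and down from 109 and 124 to 81.6 and 62.0 for myelin genes, where the lowest spots of control 1 and knockout 1 lie together (10th percentiles of 43.0 and 39.0 UMIs).

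Of 15 homeostatic microglia genes 7 fell and the rest did not pass (median -1.34), and DESeq2 called 4. With regions matched 5 of 12 fell and the median was -0.31. The median was -0.03 in thalamus, with 4 of 10 lower, and -0.69 in tectum, where 6 were tested and no call was made. P2ry12, the ADP receptor of surveying microglia, stood at 24.1 and 29 CPM in control libraries, and at 6.36 and 9.46 CPM in knockout libraries (log2 fold change -1.73 ± 0.23, adjusted p = 5.33e-05). Fcrls fell 10.3-fold, to 1.36 and 1.18 CPM, and Cx3cr1, the fractalkine receptor, fell from 16.2 and 17.1 to 6.58 and 6.51 CPM. Of 21 genes of activated microglia and macrophages 6 rose and 1 fell, with a median of 0.17; DESeq2 called 3 and 1. Spp1, osteopontin, rose from 34.7 and 28.6 to 84.7 and 101 CPM (log2 fold change 1.56 ± 0.15, adjusted p = 8.38e-07). Capg, an actin-capping protein of phagocytes, rose from 0.754 and 2.79 to 12.5 and 15.4 CPM. Fabp5 fell from 503 and 464 to 296 and 277 CPM.

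The immune lists are set beside the 6.87% of all tested genes that rose and the 8.43% that fell. Of 14 complement genes 3 rose and 1 fell. C4b, the central component made by glia, rose 8.14-fold, from 6.79 and 8.73 to 70.1 and 57.6 CPM (log2 fold change 3.03 ± 0.20, adjusted p = 1.31e-08). C1qb, made by microglia, stood at 47.9 and 47.1 against 65.8 and 64.1 CPM, with an adjusted p of 0.0208 that rose to between 0.0628 and 0.101 without control 2, knockout 1 or knockout 2, and to 0.103 with regions matched. Of 15 class I presentation genes 4 rose and 2 fell. B2m, the light chain of class I molecules, stood at 135 and 152 CPM in control libraries, and at 277 and 265 CPM in knockout libraries (log2 fold change 0.92 ± 0.11, adjusted p = 1.13e-05), and H2-D1, a heavy chain, stood at 50.9 and 59.7 against 132 and 119 CPM (log2 fold change 1.18 ± 0.12, adjusted p = 3.14e-06). Calr, a chaperone in the same list, fell from 261 and 274 to 173 and 167 CPM.

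Interferon response genes were low in these spots. In edgeR 4 of 28 tested rose and the others did not pass; DESeq2 called none of the 28, and 1 of 16 rose with regions matched. Ifitm2, an antiviral membrane protein, was the most abundant of those that rose, at 16.2 and 13.6 CPM in control libraries, and at 28.8 and 23.1 CPM in knockout libraries (log2 fold change 0.79 ± 0.20, adjusted p = 0.0112; 0.0518 without control 2 and 0.0812 without knockout 1). The list held a mean of 1.24 and 1.13 UMIs per control spot and 1.71 and 1.55 per knockout spot of 5000. No more than 0.641% of spots in any library exceeded the control limit. Il33, an alarmin of oligodendrocytes and astrocytes, fell 4.05-fold, from 64.9 and 68.8 to 18.6 and 14.6 CPM (log2 fold change -2.02 ± 0.15, adjusted p = 5.86e-08). Nfkbia, an inhibitor and target of NF-kB, stood at 39.2 and 37 against 73.3 and 65.3 CPM (log2 fold change 0.86 ± 0.13, adjusted p = 0.00027). Markers of neutrophils and lymphocytes stayed scarce. The neutrophil list summed to 9.81, 17.8, 13.6 and 27.2 CPM, and the lymphocyte list to 23, 27.9, 39.5 and 23.1 CPM. The list of border macrophages and monocytes was higher in the knockouts, at 45.3 and 39.8 against 106 and 87.7 CPM. Of its 3 tested genes 1 rose.

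Of 18 pan-endothelial genes 10 rose and 8 did not pass (median 0.73). DESeq2 called 6, and 7 of 17 rose with regions matched. Cldn5, the tight junction claudin of brain vessels, rose 3.31-fold, from 43.4 and 36.7 to 141 and 124 CPM (log2 fold change 1.73 ± 0.13, adjusted p = 5.86e-08). It was higher in each of the 3 regions measured, for example at 50.4 and 39.7 against 181 and 135 UMIs per 1000000 in thalamus and 32.9 and 40.0 against 134 and 123 in tectum. Mfsd2a, the lipid transporter that limits transcytosis, rose from 38.5 and 45 to 131 and 119 CPM (log2 fold change 1.58 ± 0.13, adjusted p = 1.5e-07). Slc2a1, the glucose transporter of brain vessels, stood at 149.7 and 145 CPM in control libraries, and at 319 and 323 CPM in knockout libraries (log2 fold change 1.12 ± 0.10, adjusted p = 7.22e-07). Itm2a, also rich in brain endothelium, fell from 110.5 and 102 to 39 and 43.2 CPM (log2 fold change -1.37 ± 0.12, adjusted p = 5.3e-07). In all, 8 of 23 blood-brain barrier genes rose and 3 fell, beside 6.87% and 8.43% of all tested genes.

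Of 22 genes known from cavernous malformations 12 rose and 2 fell (median 0.58). DESeq2 called 8 rises, and with regions matched 10 of 18 rose and 1 fell. Klf2, a shear-stress transcription factor held down by the CCM complex, rose from 23.8 and 18.2 to 52.4 and 44.8 CPM (log2 fold change 1.21 ± 0.17, adjusted p = 7.6e-05). Adamts1, a matrix protease, stood at 7.17 and 7.68 against 23.6 and 27.8 CPM (log2 fold change 1.79 ± 0.23, adjusted p = 3e-05), with a log2 fold change of 2.96 in thalamus and 0.40 in tectum. Thbd, thrombomodulin, an anticoagulant receptor, rose from 7.54 and 5.93 to 22 and 19.9 CPM (log2 fold change 1.64 ± 0.24, adjusted p = 0.000188). Of 12 coagulation and fibrinolysis genes 5 rose and 7 did not pass. Procr, the endothelial protein C receptor, had at most 1 UMI in a control library and stood at 6.13 and 4.53 CPM in the knockouts. Ctla2a, a protease inhibitor found in endothelium, was among the 12 largest rises, at 10.2 and 9.08 against 109 and 93.6 CPM (log2 fold change 3.39 ± 0.17, adjusted p = 1.03e-09).

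No pericyte or smooth muscle gene passed the test. Of 13 tested mural genes, edgeR and DESeq2 called none, and 3 had an unadjusted p under 0.05 upward and 1 downward. Vtn, vitronectin, a pericyte product, stood at 83 and 63.9 CPM in control libraries, and at 84.5 and 87.5 CPM in knockout libraries (adjusted p = 0.245, and 0.0406 without control 1), and Rgs5 stood at 42.6 and 36.7 against 46.8 and 51.1 CPM. A p that misses the threshold does not show that levels were equal. Of 27 fibroblast and matrix genes 6 rose and 3 fell, beside 6.87% and 8.43% of all tested genes. Fn1, fibronectin, rose from 24.5 and 21.3 to 85.6 and 71 CPM (log2 fold change 1.77 ± 0.15, adjusted p = 3.75e-07), while Col1a2, a fibroblast collagen chain, fell from 17.3 and 13.6 to 7.04 and 4.34 CPM (log2 fold change -1.45 ± 0.29, adjusted p = 0.00219).

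Haemoglobin transcripts mark red cells left in vessels. All 4 tested erythrocyte genes fell, of which DESeq2 called 3. In thalamus spots 2 of the 4 fell, with a median of -0.51 against -1.57 over all chosen spots. Hbb-bs stood at 652 and 563 CPM in control libraries, and at 177 and 185 CPM in knockout libraries (log2 fold change -1.75 ± 0.11, adjusted p = 9.93e-09). The 5 richest spots held 42.8% and 35.6% of control Hbb-bs UMIs, against 24.1% and 29.6% of knockout ones. Hbb-bt fell from 85.6 and 89.7 to 16.6 and 17.3 CPM. The 4 haemoglobin genes took 0.122% and 0.106% of UMIs in the chosen control spots and 0.0397% and 0.0448% in the knockout spots. In the remaining spots the shares were 0.0948%, 0.118%, 0.111% and 0.133%. The adult alpha and beta globin copies are nearly identical pairs. Counts of a copy such as Hbb-bs or Hbb-bt therefore depend on how the authors' counting treats reads that match both. The same holds for class I genes, Ly6 genes and the Serpina3 and C4 families.

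Several large changes belonged to no cell type list. Cdkn1a, which encodes the cell cycle inhibitor p21, rose 11.2-fold, from 10.6 and 7.68 to 116 and 88.5 CPM (log2 fold change 3.49 ± 0.20, adjusted p = 2.59e-09). It was found in 27 of 156 and 22 of 149 control spots and in 167 of 189 and 177 of 224 knockout spots. Among the 7 tested cell cycle genes it was the one that passed, and Pcna, the replication clamp, stood at 59.2 and 63.2 against 66.1 and 68.4 CPM. Meis2, a homeobox transcription factor, rose from 1.89 and 2.79 to 42.5 and 31.9 CPM (log2 fold change 3.95 ± 0.30, adjusted p = 5.86e-08), with UMIs in 5, 7, 94 and 95 spots. Its log2 fold change was 4.94 in thalamus, 4.32 in subthalamic and mammillary spots and 3.34 in tectum. Sgk3, a kinase of the glucocorticoid-regulated family, stood at 7.92 and 10.1 against 63.1 and 54.4 CPM (log2 fold change 2.69 ± 0.19, adjusted p = 2.88e-08). Pou4f1, a transcription factor of habenula and red nucleus, rose from 1.51 and 1.05 to 15.4 and 17.2 CPM. The habenula list as a whole did not rise: of 5 tested genes 1 rose and 1 fell (median -0.51). Its sums overlapped, at 53.6 and 28.6 against 51.3 and 35.5 CPM.

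Of 23 heat shock and ER stress genes 14 fell and 1 rose. DESeq2 called 8 falls, and with regions matched 12 fell and 1 rose. Hsph1, a large heat shock protein, stood at 220.2 and 217 CPM in control libraries, and at 121 and 118 CPM in knockout libraries (log2 fold change -0.87 ± 0.10, adjusted p = 1.33e-05). Of 22 cholesterol synthesis genes 11 fell and 11 did not pass, but DESeq2 called 3. In thalamus spots 1 of 22 fell and the median was 0.27, against -0.34 over all chosen spots. Dhcr7, which makes cholesterol in its last step, stood at 58.1 and 55.2 against 25.9 and 24.8 CPM (log2 fold change -1.16 ± 0.14, adjusted p = 1.44e-05). Of 17 hypoxia genes 6 rose and 1 fell, of which DESeq2 called 3 and 1. Adm, a vasodilator peptide, rose from 0.754 and 1.75 to 14.5 and 9.27 CPM, and Ndrg1, also abundant in oligodendrocytes, fell from 132 and 123 to 83.3 and 74.1 CPM. Of 15 glycolysis genes 1 rose, and Gapdh stood at 3020.1 and 2538 against 3134 and 3313 CPM (adjusted p = 0.293, and 0.00975 without control 1). Oxidative phosphorylation genes had a median of 0.00, with 2 of 28 higher and 3 lower. Among all tested genes 6.87% rose and 8.43% fell, so the glycolysis and oxidative phosphorylation counts do not stand out.

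The largest falls included transcripts foreign to these regions. Ttr, the transthyretin of choroid plexus, went from 156 and 229 to 1.59 and 0.197 CPM (log2 fold change -7.78 ± 0.31, adjusted p = 7.76e-11), with UMIs in 25 of 156 and 54 of 149 control spots and in 2 of 189 and 1 of 224 knockout spots. The 5 richest control spots held 86.7% and 61.8% of its UMIs. Gh, growth hormone of the pituitary, stood at 35.8 and 21.3 CPM in the controls and had no UMI in the knockouts, at least 90.2-fold lower by the floor of 3 UMIs. The 5 richest spots held 63.2% and 82% of them. The part of such tissue in other results was not tested. Crhbp, a binding protein for corticotropin-releasing hormone and urocortin, fell from 15.8 and 20.9 to 2.72 and 3.15 CPM (log2 fold change -2.63 ± 0.30, adjusted p = 7.95e-06). Rgs16, a G protein regulator of thalamic neurons, fell from 47.1 and 29.7 to 6.81 and 7.1 CPM. The thalamus list led in a smaller share of knockout spots, and its part in the fall of Rgs16 was not tested.

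**Figure D4:**
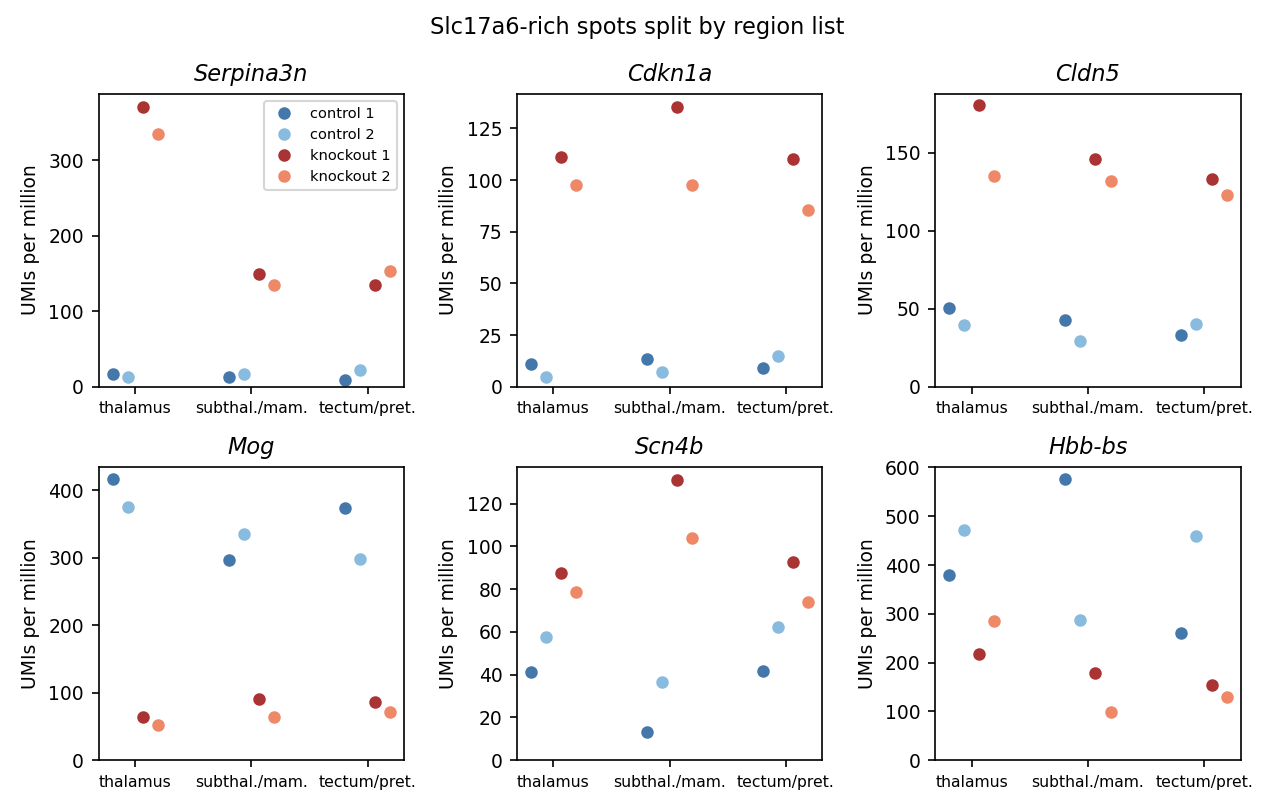
Level of 6 genes, in UMIs per 1000000 of the spots of a region without further scaling (y axis, from 0), in thalamus, subthalamic and mammillary, and tectum and pretectum spots (x axis); each point is 1 library. Serpina3n, Cdkn1a and Cldn5 are higher and Mog is lower in both knockouts in every region, while the gap for Scn4b and Hbb-bs varies between regions.

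Whether these spots responded differently from the rest of the section was tested with the interaction of genotype and spot class, blocked by library. Against the remaining ranked spots, the knockout change was more positive for 882 of 16190 genes (5.45%) and more negative for 701 (4.33%). DESeq2 called 504 in all. Against Slc17a7-rich spots, the lowest 8% of each library by the same score with at least 3 Slc17a7 UMIs (156, 150, 194 and 230 spots), 547 of 13641 genes (4.01%) were more positive and 595 (4.36%) more negative, with 245 in all by DESeq2. These spots have the highest VGLUT1 excess of their library. The score divides by all UMIs, so by construction a spot with much RNA from other cells tends to score nearer 0 and to stay outside both groups.

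Many glial and immune activation genes had a more negative knockout change in the Slc17a6-rich spots, which covers both smaller rises and larger falls. Of 32 reactive astrocyte genes tested against the remaining spots, 16 had a more negative change and none a more positive one. Against Slc17a7-rich spots 13 of 28 were more negative. Over all tested genes the shares with a more negative change were 4.33% and 4.36%. Vim, an intermediate filament, rose by 1.14 in these spots, by 3.78 in the remaining spots and by 4.44 in Slc17a7-rich spots on the log2 scale (difference -2.63 ± 0.16, adjusted p = 2.28e-13, and -3.28 ± 0.23, adjusted p = 6e-09). Serpina3n rose by 4.82 elsewhere against 3.16 here (difference -1.65 ± 0.17, adjusted p = 2.36e-08). Spp1 rose by 3.47 in the remaining spots and 1.56 here (difference -1.91 ± 0.14, adjusted p = 4.69e-11). More negative changes than in the remaining spots were also called for 14 of 30 activated microglia genes and 11 of 41 interferon genes. The same held for 8 of 20 complement genes and 14 of 20 lysosome genes.

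Of 18 pan-endothelial genes 1 had a more negative change than in the remaining spots, a share near the 4.33% of all genes, and none differed from Slc17a7-rich spots in edgeR. Cldn5 rose by 1.73, 1.83 and 1.54 in the 3 classes (difference -0.09 ± 0.13, adjusted p = 0.748, and 0.20 ± 0.17, adjusted p = 0.542). Mfsd2a rose more here, by 1.58 against 0.96 (difference 0.62 ± 0.12, adjusted p = 0.000652). Klf2 changed by 1.21 here and 0.39 in Slc17a7-rich spots (difference 0.83 ± 0.21, adjusted p = 0.0122).

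Of 24 myelin genes 11 had a more positive and 3 a more negative change than in the remaining spots, and 13 and 3 against Slc17a7-rich spots. Over all tested genes the shares were 5.45% and 4.33% in the first comparison and 4.01% and 4.36% in the second. Opalin fell by 2.63 here and by 3.34 in the remaining spots on the log2 scale (difference 0.71 ± 0.15, adjusted p = 0.00195). Klk6, a protease of oligodendrocytes, changed by -2.42 against 0.35 and 2.27 (difference -2.76 ± 0.27, adjusted p = 1.45e-08, and -4.68 ± 0.53, adjusted p = 3.9e-06). Trf also fell more here, -1.78 against -0.87 (difference -0.92 ± 0.08, adjusted p = 3.96e-09). Ptgds changed by 1.76 here against -0.13 and -0.89 (difference 1.89 ± 0.10, adjusted p = 1.84e-14, and 2.64 ± 0.13, adjusted p = 9.15e-12).

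Neuronal lists differed in how their changes compared. Over all tested genes 5.45% had a more positive and 4.33% a more negative change than in the remaining spots. Against Slc17a7-rich spots these shares were 4.01% and 4.36%. Of 24 release genes 9 were more positive and 2 more negative than in the remaining spots, and of 32 channel genes 10 and 1. Glutamate receptors had 3 and 3 of 27, GABA-A and glycine receptors 3 and 2 of 19, calcium-binding proteins 5 and 3 of 15, and axon injury and growth genes 4 and 4 of 18. Snap25 changed by 0.58 here and 0.09 in the remaining spots (difference 0.48 ± 0.06, adjusted p = 3.17e-06), and Scn4b by 1.13 and 0.00 (difference 1.14 ± 0.15, adjusted p = 3.2e-06). Oxidative phosphorylation genes had a more positive change in 13 of 28 cases against the remaining spots and 3 against Slc17a7-rich spots. Of 23 immediate early genes 6 had a more positive and 3 a more negative change than in the remaining spots, and 10 and 1 against Slc17a7-rich spots. Of 5 erythrocyte genes 4 had a more negative change in both comparisons. Hbb-bs changed by -1.75 here, -0.20 in the remaining spots and 0.67 in Slc17a7-rich spots (difference -1.55 ± 0.10, adjusted p = 2.83e-12, and -2.44 ± 0.21, adjusted p = 5.58e-08).

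Meis2 and Sgk3 rose more here than elsewhere. Meis2 changed by 3.95 here and by 0.81 in the remaining spots (difference 3.16 ± 0.30, adjusted p = 6.96e-09), and Sgk3 by 2.69 and 1.01 (difference 1.68 ± 0.21, adjusted p = 1.63e-06). Cdkn1a rose by 3.49 here, 2.50 in the remaining spots and 1.57 in Slc17a7-rich spots (difference 0.99 ± 0.21, adjusted p = 0.00151, and 1.90 ± 0.24, adjusted p = 1.39e-05). Fcrls changed by -3.37 here and -0.55 in the remaining spots (difference -2.84 ± 0.37, adjusted p = 2.23e-06), and Cx3cr1 by -1.35 and -0.09 (difference -1.25 ± 0.25, adjusted p = 0.000932). The region makeup of the chosen spots changed with genotype, and its part in these differences was not tested.

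**Figure D5:**
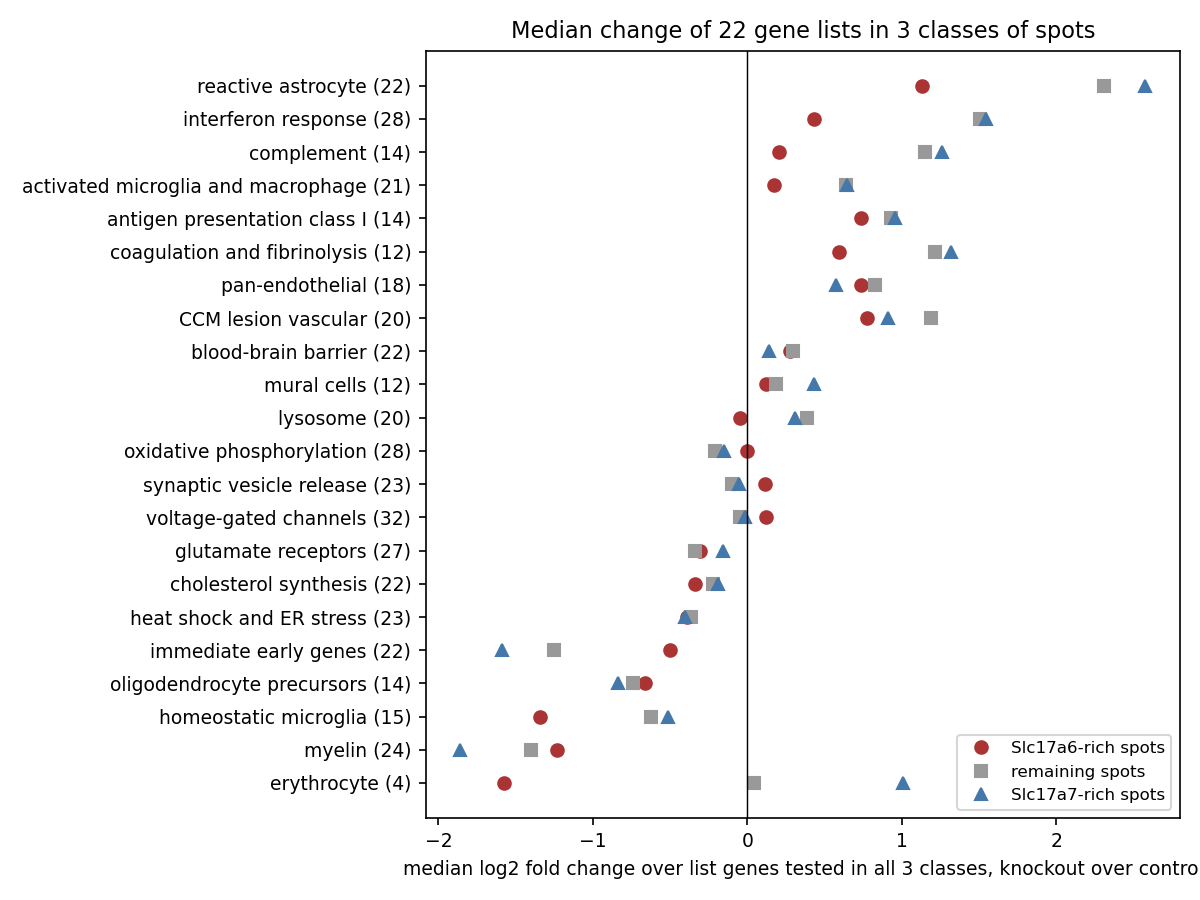
Median log2 fold change, knockout over control (x axis), of 22 gene lists (y axis, number of genes in parentheses), over the genes tested in all 3 classes of spots; circles are Slc17a6-rich spots, squares the remaining spots and triangles Slc17a7-rich spots. Reactive astrocyte genes have medians of 1.13, 2.31 and 2.58, pan-endothelial genes 0.73, 0.83 and 0.57, and erythrocyte genes -1.57, 0.04 and 1.01.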

How the data were processed

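Spatial transcriptomes of 4 mouse brain sections were analysed, 2 per genotype. The authors deposited unnormalized UMI counts, a value for each gene in each spot. Space Ranger and the mm10 build are named in the submitters' processing notes. No filter for spots over tissue had been applied, so the minimum of 5000 UMIs was the only one.

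Counts of the chosen spots were summed per library, leaving out Slc17a6 and Slc17a7, and no doublet caller was run. Sums were tested with edgeR 4.0.16 (R 4.3.3; filterByExpr, TMM, quasi-likelihood test) and Benjamini-Hochberg adjustment over all tested genes, at 0.05. The interaction models held library as a block, and members were not tested against other spots within a library. DESeq2 1.42.0, RLE scaling, no filter, other score and UMI limits, thinning, region subsets, a replicate block and leaving out each library were alternatives. The procedure was tested on simulated data.

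Named genes were the 12 largest rises and falls of at least 10 CPM with groups apart, up to 4 called genes per list (or the 2 most abundant), 3 per marker or region list, the 8 largest differences per direction and interaction, and 5 fixed genes. The spots, the 54 gene lists and the tests were chosen with earlier results of these data known. Promoters are from RefSeq, and 204 of 206 named genes matched a RefSeq row.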

Additional observations from a re-analysis of the deposited data

Results flagged for a closer look

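The knockout change in Slc17a6-rich spots differed from that in the remaining spots for 1583 genes, by the test of the genotype and spot class interaction in edgeR. The largest positive differences, on the log2 scale, were those of Ucn (7.69), Meis2 (3.16), Lamp5 (2.26), Plk5 (1.93), Ptgds (1.89), Arl4d (1.88), Sgk3 (1.68) and Lypd6 (1.59). The largest negative ones were those of Igfbp2 (-3.12), Klk6 (-2.76), Vim (-2.63), Rarres2 (-2.58), Ecel1 (-2.42), Lars2 (-2.40), Crhbp (-2.34) and Gpx3 (-2.24).

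Against Slc17a7-rich spots, 1142 genes differed by the same test. The positive differences with the largest size were those of Ucn (11.04), Cartpt (3.74), Meis2 (3.71), Arl4d (2.94), Ptgds (2.64), Sgk3 (2.50), Car14 (2.48) and Plk5 (2.39). The negative ones were those of Ttr (-5.55), Klk6 (-4.68), Ecel1 (-3.87), Igfbp2 (-3.72), Rarres2 (-3.37), Vim (-3.28), Fbln5 (-3.20) and A2m (-3.20). Fitted differences of Ucn rest on 0 UMIs in the chosen control spots and depend on the prior count, so they are no estimate of size. Lamp5 and Meis2 mark neuron types, Igfbp2 and Rarres2 are secreted proteins, and Gpx3 is a secreted peroxidase. Lars2, a mitochondrial leucyl-tRNA synthetase, stood at 370.0 and 159 against 168 and 134 CPM in the Slc17a6-rich spots, with an adjusted p of 0.756 without control 1.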

How the results depend on the processing

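Against 868 genes higher and 1065 lower, DESeq2 gave 291 and 423, the top 4% of spots 347 and 443, and spots thinned to 5000 UMIs 304 and 389. Region-matched spots gave 139 and 157 when thinned and 562 and 719 at full depth. Thalamus spots alone gave 331 and 412, subthalamic and mammillary spots 291 and 381, and tectum and pretectum spots 166 and 255. The full-depth match and the last 2 subsets were chosen after seeing the data. Thinning and subsets use fewer UMIs or spots. Leaving out 1 library gave 579 to 817 higher and 708 to 996 lower genes, the fewest falls without knockout 2. The genes that differed from the remaining spots numbered 1583, with 504 by DESeq2, 597 thinned, 683 for the top 4%, and 945 to 1321 without 1 library, the fewest without knockout 2. Those that differed from Slc17a7-rich spots numbered 1142, with 245, 487 and 729 in the same order, and 875 to 985 without 1 library. Same-numbered libraries were not treated as pairs in the main fit. Their deviations correlated at -0.03 across genes, which cannot show whether they were handled together. The fit with a replicate block gave 800 higher and 990 lower genes.

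Directions turned for Th with Slc6a3 spots kept (0.42), and in thalamus spots for Rarres2 (0.27), Ecel1 (2.23) and Gpx3 (1.30). They also turned for Igfbp2 in subthalamic and mammillary spots (0.051). Lars2 turned outside thalamus (0.15), in subthalamic and mammillary spots (0.21) and in tectum (0.21). Gad2 turned in tectum (-0.057). The cause was not tested. With 2 libraries a group, an exact permutation test of 1 gene cannot go below p = 0.33, so single calls rest on the spread shared across genes.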
